A study of Arabidopsis thaliana with 18 samples.

Results

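The peaks described here are those that each of a pair of MADS-box transcription factors (TFs) had when its partner was absent: SVP:GFP in *flc-3* plants and FLC in *svp-41* plants. All peaks of both lists were taken, 665 of the 1503 peaks in the 4 lists of the ChIP-seq study, of which 419 were FLC peaks and the others SVP:GFP peaks. A peak was called common when its start-to-end interval shared at least 1 bp with a peak of the other list on the same chromosome, and a peak of SVP:GFP alone or FLC alone when it did not. Alone therefore means only that the other list held no overlapping peak, not that the other protein did not bind there. The study held 18 samples of *Arabidopsis thaliana* seedlings, 2 weeks old, in 6 groups of 3. The ecotype label of every sample is Columbia-0 with *FRI*, an allele that raises *FLC* expression, although the titles of the *35S:GFP* control do not name *FRI*.

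For the first list, SVP:GFP was expressed from the *SVP* promoter (*pSVP:SVP:GFP*) in *svp-41 flc-3 FRI* plants and precipitated with an antibody against GFP (Ab290). These plants lacked functional endogenous *SVP* as well as *FLC*, and the transgene added copies of *SVP* sequence that the *35S:GFP* control plants did not have. For the second list, endogenous FLC was precipitated with an FLC antiserum from *svp-41 FLC FRI* plants, against *svp-41 flc-3 FRI* plants as the control. The other lists, called WT here, are for FLC in *SVP FLC FRI* plants and for SVP:GFP in plants that had FLC as well (*svp-41 FLC FRI* with the transgene). Both lists of a protein share its control samples, so their ranks are only set side by side. The labels name a control for each protein and the methods say that control samples were combined for peak calling, so all lists may share control reads. The other MADS-box genes were intact in all plants, so neither protein was without every possible partner. The labels give long days and the methods give short days with harvest at ZT8, and this was not settled here. Each list merges 3 samples and holds neither read numbers nor values per replicate, so no depth, replicate error or test over samples is given. Shares carry 95% Wilson intervals, which cover counting error only. The lists were made with different antibodies. Peaks were therefore ranked within their own list, by the −log10(*P*) that the authors' peak calling gave them, and no enrichment value was compared between the lists.

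FLC and SVP delay flowering. FLC is the repressor that prolonged winter cold switches off (vernalisation), and SVP acts in the responses to ambient temperature and day length, in part by repressing the floral integrators *FT* and *SOC1*. MADS-box proteins bind DNA as dimers at the CArG-box, and dimers join into larger complexes. FLC and SVP interact with each other and also with relatives such as FLM and MAF3, and some of these genes are themselves repressors of flowering.

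The sequences that set the classes apart are shown first. Each is 30 bases of the RefSeq TAIR10.1 genome, written 5′ to 3′ on the strand of an assigned gene (plus strand where no gene was assigned), with the motif nearest to the summit in capitals. The first set holds CArG-boxes (CC and GG on either side of 6 bases that are A or T) at common sites. The box of *FT* lies in the FLC peak but outside the SVP:GFP peak, and the others lie in both peaks. *FT* encodes the mobile florigen, *SHP2* a carpel and fruit identity factor, *SMZ* an AP2-like repressor of flowering, *MIR156E* a microRNA that keeps plants juvenile, and *ATC* a relative of the floral repressor *TFL1*.
*FT*, chr1:24331791-24331820, plus strand: aaattattttCCTTTTTTGGggtatactga
*SHP2* and *HVA22F*, chr2:17819837-17819866, minus strand: tggaaactttCCTTTTTTGGtaatcccttt
*SMZ* and *TON1A*, chr3:20379158-20379187, minus strand: tttagtcttaCCAAATAAGGaaaggccgat
*MIR156E* and AT5G11970, chr5:3865686-3865715, minus strand: tgacaactttCCTTTTTAGGcaaaacacac
*ATC*, chr2:11771695-11771724, plus strand: attaacatttCCAAAAATGGtaagtccaag
*DRB5*, AT5G41071 and *GDPD2*, chr5:16440835-16440864, plus strand: tacttgatttCCAAAAATGGgttttttcaa

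The second set holds G-boxes (CACGTG) at sites of SVP:GFP alone. A G-box is the core site of basic helix-loop-helix and bZIP factors and not of MADS-box proteins. *AGL14* and *AGL19* encode MADS-box factors that promote flowering, *FBW2* an F-box protein, *ICK1* an inhibitor of cyclin-dependent kinases, and *SLK2* a transcriptional co-regulator of the SEUSS family.
*FBW2*, chr4:5757933-5757962, plus strand: ctttttcaccgaCACGTGtcggttctttca
*AGL14*, AT4G11870 and AT4G11876, chr4:7142482-7142511, plus strand: cggtaataatggCACGTGtcatgatctcaa
*AGL19* and AT4G22960, chr4:12028453-12028482, minus strand: ggttaatatggaCACGTGccaagatctccc
*ICK1* and AT2G23440, chr2:9978170-9978199, minus strand: gtttataaccgaCACGTGtcaataaaacaa
*SLK2* and *BAG2*, chr5:24939303-24939332, minus strand: cgataaacaagaCACGTGtcagtattgact

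The third set holds CArG-boxes at sites of one protein alone. *SPA2* encodes a partner of the COP1 light-signalling ubiquitin ligase, and *AGL18* and *BRC1* encode a MADS-box repressor of flowering and a TCP repressor of branching. The last line, 20 bases long, was found at 20 places on 5 chromosomes.
*SPA2*, SVP:GFP alone, chr4:6771967-6771996, plus strand: ctcttgtttgCCAAATTTGGgatatttctg
*AGL18*, FLC alone, chr3:21233610-21233639, plus strand: agcaaagccaCCAAATATGGaaaattgcta
*BRC1*, FLC alone, chr3:6380841-6380870, plus strand: caatggatgaCCAAAATAGGagtttttatt
repeated sequence, FLC alone: actttCCATTTTTGGaaacc

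In the *flc-3* background 86 SVP:GFP peaks were common (35.0%, interval 29.3 to 41.1%), and in *svp-41* 82 FLC peaks were common (19.6%, 16.1 to 23.6%). Among peaks with a −log10(*P*) of at least 20, the common ones were 36 of SVP:GFP and 33 of FLC. Both lists were shorter at this cut, so these counts do not show a lower share. The remaining 160 SVP:GFP peaks and 337 FLC peaks were found with one protein alone. The common peaks formed 86 pairs at 82 places, because 4 FLC peaks each overlapped a pair of neighbouring SVP:GFP peaks. The median overlap was 267 bp, the smallest was 81 bp and the largest 1851 bp. Just outside the criterion lay a peak of SVP:GFP on chromosome 2 (3617183 to 3617273) and a peak of FLC (3616559 to 3617070), 113 bp apart. Only 4 peaks of SVP:GFP alone (2.5%) and 26 of FLC alone (7.72%) were within 1 kb of a peak of the other list, and the median distance to the nearest one was 134 kb for SVP:GFP alone and 90.8 kb for FLC alone.

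Common peaks lay towards the top of both lists. Their median rank was 91.5 in the SVP:GFP list, where peaks of SVP:GFP alone had a median rank of 138, and 74 of 419 in the FLC list, where peaks of FLC alone had a median rank of 238. In the strongest 20% of the lists 30 of 50 SVP:GFP peaks (60%) and 42 of 84 FLC peaks (50%) were common. In the weakest 20% these were 7 of 49 (14.3%) and 2 of 83 (2.41%). Among the 10 top peaks, 8 of SVP:GFP and 9 of FLC were common, and several of these SVP:GFP peaks lay at repeated sequence, treated below. In the 3 groups of ranks between, the shares of SVP:GFP (27.5, 36.2 and 36.7%) had overlapping intervals and formed no steady decline.

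**Figure D1:**
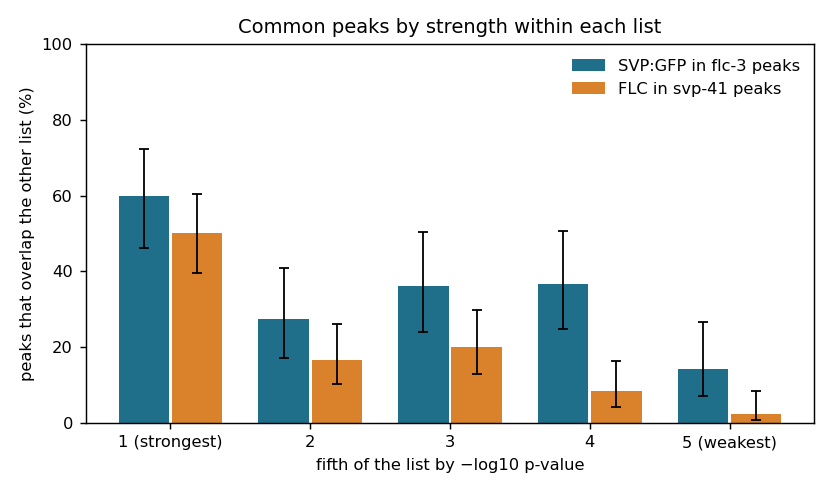
Share of peaks (%) that overlap the other list, in 5 groups of ranks of about equal size from the highest to the lowest −log10(*P*), for SVP:GFP in *flc-3* (blue) and FLC in *svp-41* (orange); bars give the share and whiskers its 95% Wilson interval. The share was 60% for SVP:GFP and 50% for FLC in the strongest group, and 14.3% and 2.41% in the weakest.

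Where both proteins had a peak, the summits were close together. The median distance between the SVP:GFP summit and the FLC summit was 14.5 bp over the 86 pairs, 33 pairs (38.4%) were within 10 bp and 77 (89.5%) within 100 bp. The same genes were assigned to both peaks at 83 pairs (96.5%, counting pairs with no gene on either side as the same). The exceptions in distance included *FT*. Its SVP:GFP peak spanned 24330603 to 24331682 with a summit 56 bp upstream of the gene, its FLC peak spanned 24331589 to 24332039 with a summit in an intron, the overlap was 93 bp and the summits were 485 bp apart. The CArG-box of *FT* printed above lay 3.5 bp from the FLC summit.

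**Figure D2:**
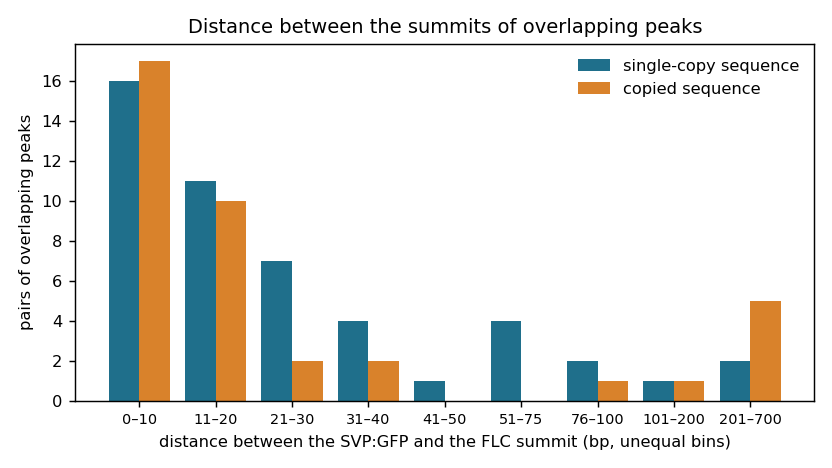
Number of overlapping pairs by the distance in bp between the SVP:GFP and the FLC summit, in bins of unequal size, for single-copy (blue) and copied (orange) sequence. Most pairs of both kinds fall in the bins up to 30 bp.

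The common sites were of a pair of kinds that differed in sequence. A peak was counted as copied when the 200 bp around its summit had a second match elsewhere (95% identity or more along 150 bp or more), and otherwise as single-copy. By this measure 38 of the 86 common SVP:GFP peaks (44.2%, 34.2 to 54.7%) and 33 of the 82 common FLC peaks (40.2%, 30.3 to 51.1%) were copied. So were 22 of the 160 peaks of SVP:GFP alone (13.8%, 9.26 to 19.9%) and 158 of the 337 peaks of FLC alone (46.9%, 41.6 to 52.2%). With peaks under a −log10(*P*) of 20 left out of both lists and the classes formed again, the share of SVP:GFP alone was 7.89%. In the SVP:GFP list 38 of 60 copied peaks (63.3%) and 48 of 186 single-copy peaks (25.8%) were common. In the FLC list the shares were near each other, with 33 of 191 copied peaks (17.3%) and 49 of 228 single-copy peaks (21.5%). With copied peaks left out, the median rank in the SVP:GFP list was 100 for common peaks and 128.5 for SVP:GFP alone. In the FLC list it was 70 for common peaks and 210 for FLC alone. Of the single-copy peaks in the top 10, 3 of 5 of SVP:GFP and 8 of 8 of FLC were common. The authors' aligner placed a read that matches several places at one of its best positions, so the place of a copied peak is less certain than that of a single-copy peak.

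Most copied common peaks had no assigned gene: 32 of 38 SVP:GFP peaks (84.2%) and 28 of 33 FLC peaks (84.8%). Of the single-copy common peaks, 4 of 48 (8.33%) of SVP:GFP and 5 of 49 (10.2%) of FLC had none. The copied common sites had many relatives, with a median of 18 other copies in either list and a maximum of 61. Grouping all peaks by sequence (at least 80% identity over at least 100 bp) put the 82 common places into 65 groups, the 160 places of SVP:GFP alone into 159 and the 337 places of FLC alone into 217. The largest group held 63 places on all 5 chromosomes, of which 6 were common, 2 were of SVP:GFP alone and 55 of FLC alone. Peaks that share a sequence are not independent members of their class.

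Copied common sites were crowded at the start of chromosome 2. In its first 100 kb lay 12 SVP:GFP peaks, all of them common and copied, with ranks from 3 to 225, and 39 FLC peaks, all copied, of which 9 were common. In WT the same stretch held 4 SVP:GFP peaks (best rank 105 of 523) and 29 FLC peaks (best rank 15 of 315). Of the 10 common pairs that ranked best in both lists (by the poorer of their ranks), 7 were copied. Of these 7, 5 were in the first 100 kb of chromosome 2, where some pairs share an FLC peak.

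Widths separated the kinds of common site in the SVP:GFP list. Copied common peaks of SVP:GFP had a median width of 144 bp and single-copy common ones of 464.5 bp, against 472 bp for single-copy peaks of SVP:GFP alone. The SVP:GFP peak was wider than its FLC partner in 1 of 38 copied pairs and in 26 of 48 single-copy pairs. The common FLC peaks had a median width of 260 bp where copied and 434 bp where single-copy, against 317 bp for single-copy peaks of FLC alone. The overall medians (314.5 bp common and 462.5 bp alone for SVP:GFP, 353.5 bp common and 283 bp alone for FLC) ran in opposite directions in the lists.

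**Figure D3:**
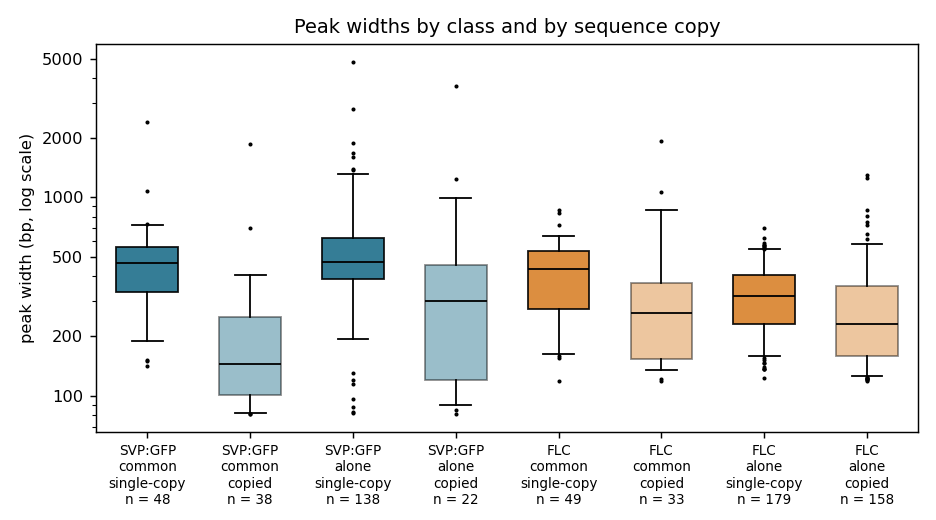
Peak width (bp, log scale) by list, class and sequence copy, with SVP:GFP in *flc-3* in blue and FLC in *svp-41* in orange; boxes give the quartiles, lines the medians, whiskers the 5th and 95th percentiles and points the peaks beyond. The copied common SVP:GFP peaks are the narrowest class, with a median of 144 bp.

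The ranks of each pair in its lists are set side by side in the plot of ranks, where the copied pairs, some of which share a sequence family, lie along a rising band. Among single-copy pairs, some sites were near the top in one list only. The peak at *DRB5* (which encodes a double-stranded RNA-binding protein) and *GDPD2* ranked 2 for SVP:GFP and 293 for FLC, and its peaks in WT ranked 70 for SVP:GFP and 2 for FLC. The peak in the 3′UTR of *AOC4*, an enzyme of jasmonate synthesis, ranked 131 for SVP:GFP and 2 for FLC.

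**Figure D4:**
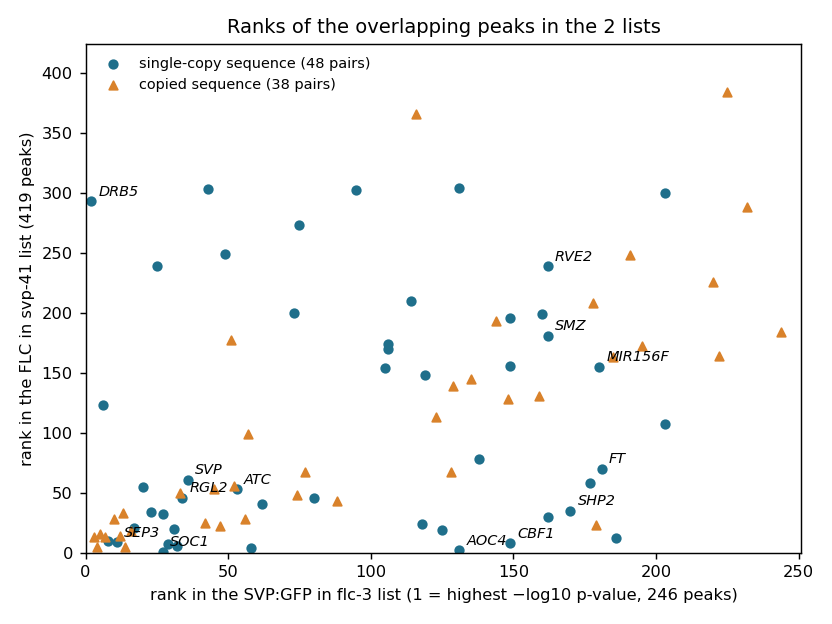
Rank of each overlapping pair for SVP:GFP in *flc-3* plants (x axis) and of FLC in *svp-41* (y axis, of 419), with rank 1 the highest −log10(*P*), for 48 single-copy pairs (blue circles) and 38 copied pairs (orange triangles). Copied pairs follow a rising band. Some single-copy pairs, such as *SEP3* and *SOC1*, have a high rank in both lists, and others, such as *DRB5*, *AOC4* and *CBF1*, in one list only.

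Motifs differed between the classes. Within 200 bp around the summit a CArG-box occurred at 11 of 48 single-copy common SVP:GFP peaks (22.9%, 13.3 to 36.5%) and 12 of 49 single-copy common FLC peaks (24.5%, 14.6 to 38.1%). It occurred at 5 of 138 single-copy peaks of SVP:GFP alone (3.62%, 1.56 to 8.20%) and 15 of 179 of FLC alone (8.38%, 5.14 to 13.4%). As a background, both strands of every 200-bp tile of the chromosomes were searched, of which 1.23% held a CArG-box, and so were the 200 bp before each protein-coding gene, of which 2.12% did. The intervals of both common classes and of FLC alone lay above the share found before genes, and that of SVP:GFP alone included it. The median GC content of the single-copy windows was 33.5% for common SVP:GFP peaks and 33% for common FLC peaks. It was 33.5% for FLC alone and 37.25% for SVP:GFP alone, and whether base composition bears on the motif shares was not tested. With copied peaks included, a CArG-box was at 14.0% of common SVP:GFP peaks (8.17 to 22.8%) and 15.9% of common FLC peaks (9.51 to 25.3%). For FLC alone this share was 7.72% (5.32 to 11.1%), and its interval overlapped those of both common classes. The share of SVP:GFP alone depended on the setting. With copied peaks included it was 3.75%, and with 5 to 7 A or T allowed in the box it was 8.13%, beside 3.78% of the tiles. It reached 9.21% when peaks under a −log10(*P*) of 20 were left out of both lists. Common SVP:GFP peaks whose FLC peak fell below that cut then counted as SVP:GFP alone. Among them were *DRB5* and *MIR156E*, whose CArG-boxes are printed above as common. Within the 200-bp window 2 SVP:GFP peaks and 2 FLC peaks held 2 or more CArG-boxes, and they were common. Read the other way, 11 of 16 single-copy SVP:GFP peaks with a CArG-box were common (68.8%), against 37 of 170 without one (21.8%). For FLC it was 12 of 27 with one (44.4%), against 18.4% without.

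At common sites the CArG-box was near the summit. The median distance between its centre and the summit was 12 bp for the 12 common SVP:GFP peaks that had one and 3.5 bp for the 13 common FLC peaks, copied peaks included. It was 54.5 bp for the 6 of SVP:GFP alone and 21 bp for the 26 of FLC alone. A CArG-box is a match of letters and not a shown binding site, and its absence, as at *SOC1* and *SEP3* here, says only that these letters are not in the window.

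The G-box had the other pattern. It occurred at 34 of 138 single-copy peaks of SVP:GFP alone (24.6%, 18.2 to 32.4%), but at 3 of 48 single-copy common SVP:GFP peaks (6.25%, 2.15 to 16.8%), 3 of 49 common FLC peaks (6.12%) and 12 of 179 peaks of FLC alone (6.70%, 3.88 to 11.4%). It was in 2.20% of the 200-bp tiles and in 5.64% of the 200 bp before protein-coding genes. Among single-copy peaks of SVP:GFP alone with a summit up to 3 kb upstream of a gene, 21 of 54 had one (38.9%, 27.0 to 52.2%), and of the corresponding peaks of FLC alone 7 of 92 (7.61%, 3.73 to 14.9%). None of the 22 copied peaks of SVP:GFP alone had one, which allows a share of up to 13.6%. None of the 34 peaks of SVP:GFP alone with a G-box had a CArG-box in the same window either (limit 8.82%).

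The letters after the G-box were often the same, as the printed sequences show for *FBW2*, *AGL14*, *ICK1* and *SLK2*. The longer string CACGTGTC, which contains the G-box and was chosen after these sequences were seen, was in 22 of the 34 windows on one strand or the other. It was in 13.8% of all 160 windows of SVP:GFP alone (9.26 to 19.9%), in 1 of 86 common SVP:GFP windows (1.16%), in 3 of 337 windows of FLC alone (0.89%) and in 0.459% of the genome tiles. The G-box was not tied to the summit as closely as the CArG-box of common sites, with a median distance of 47.5 bp. Over the whole lists, 37 SVP:GFP peaks in *flc-3* and 15 FLC peaks in *svp-41* (3.58%) had a G-box, and in the WT lists the share was 16.8% for SVP:GFP and 8.89% for FLC.

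**Figure D5:**
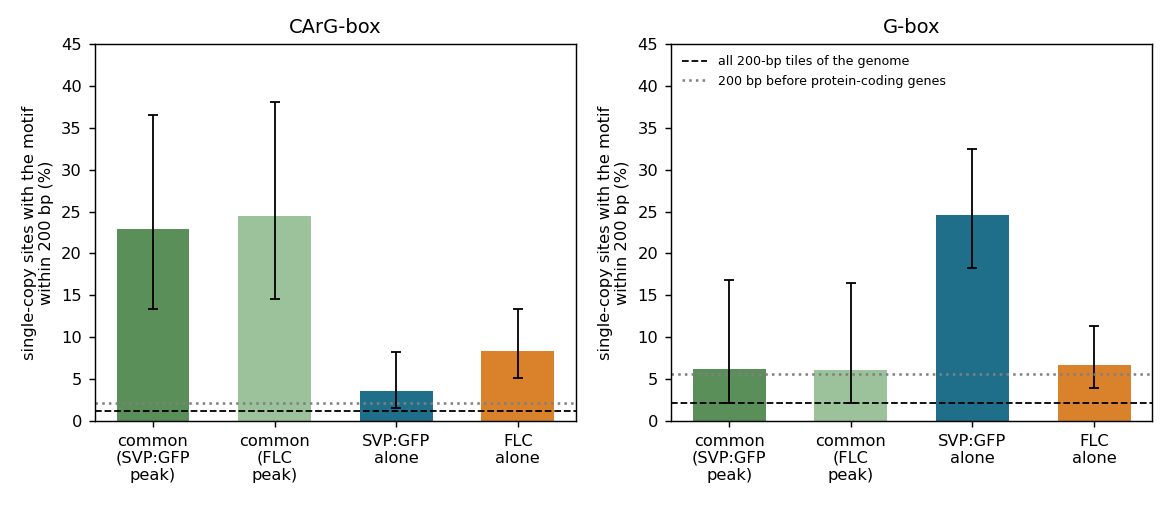
Share (%) of single-copy sites with a CArG-box (left) or a G-box (right) in the 200 bp around the summit, for common SVP:GFP peaks, common FLC peaks, SVP:GFP alone and FLC alone, with 95% Wilson intervals; the dashed line is the share of all 200-bp tiles of the genome and the dotted line that of the 200 bp before protein-coding genes. The CArG-box is most frequent at common sites (22.9 and 24.5%) and the G-box at SVP:GFP alone (24.6%).

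The CArG-boxes of FLC alone were partly 1 repeated sequence. Of the 26 peaks of FLC alone with a CArG-box, 11 were copied. The 20-base sequence printed above, with its box in the middle, was at 20 places in the genome. Of the FLC peaks in *svp-41*, 10 contained it, none of them common, and no SVP:GFP peak in *flc-3* did. In the WT lists it was in 2 FLC peaks and 0 SVP:GFP peaks.

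Single-copy sites of each class lay mostly at genes, but the share of all genome positions at genes was not computed, so no preference is read from this. Relative to protein-coding genes, 25 of 48 single-copy common SVP:GFP summits were up to 3 kb upstream (52.1%, 38.3 to 65.5%), as were 54 of 138 of SVP:GFP alone (39.1%, 31.4 to 47.5%) and 92 of 179 of FLC alone (51.4%, 44.1 to 58.6%). In 5′UTRs lay 27 of SVP:GFP alone (19.6%), and in 3′UTRs 20 (14.5%). For FLC alone these were 24 (13.4%) and 15 (8.38%). Introns held 16 summits of FLC alone (8.94%) and 5 of SVP:GFP alone (3.62%). These intervals overlapped between the classes.

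Sites of FLC alone and of SVP:GFP alone differed in what the other protein did when both were present. These overlaps are a description, since control reads may be shared. Of the 337 peaks of FLC alone, 67 (19.9%, 16.0 to 24.5%) overlapped a peak of SVP:GFP in WT, where SVP:GFP and FLC occurred together. Of the 160 peaks of SVP:GFP alone, 6 (3.75%, 1.73 to 7.94%) overlapped a peak of FLC in WT. Among single-copy peaks the shares were 35.8% (64 of 179) and 4.35% (6 of 138). The SVP:GFP list in WT is the longer one, and when it was cut to the length of the FLC list by −log10(*P*), which was done after the data were seen, the count of FLC alone was 39 in place of 67. The 6 SVP:GFP sites included *SPA2* (rank 1 in *flc-3*, with an FLC peak of rank 75 in WT), AT2G30600 (rank 15, FLC rank 8) and *DMR6*, a defence-related oxygenase (rank 203, FLC rank 97). The FLC sites included AT1G20380 (rank 3, SVP:GFP rank 40 in WT), *SRF3*, a receptor kinase (rank 15, SVP:GFP rank 62), and *LTI78*, a cold-induced gene (rank 29, SVP:GFP rank 155). Common peaks overlapped the other protein's WT peaks at 61 of 86 SVP:GFP peaks (70.9%) and 47 of 82 FLC peaks (57.3%). Common peaks were chosen for overlapping a peak of the other protein and the others for having none. Their higher shares here are therefore not independent of that choice.

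At the level of genes, the SVP:GFP peaks were assigned to 303 genes and the FLC peaks to 391. Of 27444 annotated protein-coding genes, 1.02% were assigned to the SVP:GFP list, 1.32% to the FLC list and 0.259% to a common site. The lists shared 87 genes, which was 28.7% of the SVP:GFP genes and 22.3% of the FLC genes. When genes were assigned again from the summits with the TAIR10.1 annotation, 135 were shared with a window from 3 kb upstream to 1 kb downstream. With a window from 1 kb upstream to the end of the gene, 65 were shared. Of the 87, 80 had a common site assigned in both lists and 7 had separate peaks only. The separate peaks were at *THH1* and *PER4*, AT1G49450, *TIFY7* (which encodes a JAZ repressor of jasmonate signalling), *SLK2*, AT2G07981 and AT2G08986. At *TIFY7* the SVP:GFP peak was in the 5′UTR (rank 235) and the FLC peak in an intron (rank 379), with the summits 1054 bp apart. The 7 genes were listed after their peaks were seen.

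Of 96 genes in 8 lists of flowering, hormone and cold genes, 18 were assigned to an SVP:GFP peak (18.8%) and 20 to an FLC peak (20.8%). The lists hold genes already linked to these TFs, so their shares are no independent evidence of a preference. A common site was found at 11 of the 96, SVP:GFP alone at 7 and FLC alone at 9, and 69 were in neither list.

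A common site was found at 2 of 12 floral integrators and activators and at 2 of 13 organ identity genes. Another 2 integrators had SVP:GFP alone, 1 organ identity gene had FLC alone, and 8 and 10 genes of these lists were in neither. *SOC1*, which promotes the floral transition, had SVP:GFP rank 27 and FLC rank 1, with summits 28 and 16 bp upstream of the gene. *SEP3*, which is needed for the identity of floral organs, had SVP:GFP rank 11 and FLC rank 9. The peaks spanned 8598558 to 8599095 for SVP:GFP and 8598413 to 8599137 for FLC on chromosome 1, with summits 9 bp apart. The nearest gene with these summits upstream of it was AT1G24265, also assigned, at 1515 and 1524 bp. *FT* had SVP:GFP rank 181 and FLC rank 70, and neither protein had an overlapping peak there in WT. *SHP2* had SVP:GFP rank 170 and FLC rank 35, with summits 290 and 260 bp upstream. *SOC1* and *SEP3* were thus near the top of both lists, and *FT* and *SHP2* in the lower part of the SVP:GFP list.

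Of 10 MADS-box repressors, *SVP* itself had a common site, 3 had FLC alone and 6 were in neither list. The SVP:GFP peak there (chromosome 2, 9579867 to 9582267) was 2400 bp wide with rank 36, and a further peak of SVP:GFP alone lay at 9583081 to 9583586 (rank 228). The plants carried *SVP* sequence in the transgene and the *35S:GFP* control did not carry it, so binding and the extra copies cannot be told apart at this locus. The FLC peak (9579949 to 9580393, rank 61) came from plants without the transgene and had its summit in the 5′UTR. *AGL16* (rank 223), *AGL15* (rank 400) and *AGL18* (rank 414), repressors of the same family, had peaks of FLC alone. *AGL16* had no SVP:GFP peak in *flc-3*, and its peaks in WT ranked 31 for SVP:GFP and 7 for FLC. *FLC* was in neither list.

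The activators *AGL14* (rank 30) and *AGL19* (rank 125) had peaks of SVP:GFP alone, 473 and 501 bp upstream, both with a G-box. In WT, SVP:GFP peaks at these genes ranked 54 and 55, and FLC had no peak assigned to either. *AP3*, a petal and stamen identity gene, had a peak of FLC alone in its 5′UTR (rank 59) and an FLC peak of rank 221 in WT.

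Repressors of the AP2 and TEM families and microRNA genes followed no single pattern. Of the 7 AP2-like and TEM repressors, 1 had a common site, 2 had FLC alone and 4 were in neither list. *SMZ* was a common site (SVP:GFP rank 162, FLC rank 181) with summits 6 bp apart. The nearest gene with these summits upstream of it was the neighbouring *TON1A*, at 2278 and 2284 bp. *TOE3* (rank 108) and *TEM2* (rank 239) had peaks of FLC alone, the one of *TEM2* nearest to the neighbouring *STN7*. *MIR156E* (SVP:GFP rank 106, FLC rank 170) and *MIR156F* (SVP:GFP rank 180, FLC rank 155) were common, and none of the other 10 genes of the miR156, miR172 and *SPL* list was in either list.

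In the light and clock list 18 of 22 genes were in neither list. *RVE2* (a MYB-like clock factor) was common with SVP:GFP rank 162 and FLC rank 239. *SPA2* (rank 1) and the clock regulator *TIC* (rank 85) had peaks of SVP:GFP alone. *FIO1* (rank 185) had a peak of FLC alone, which was also assigned to *GRP2B*. *RGL2*, a DELLA repressor of gibberellin responses, was the only gene of the gibberellin list (1 of 13), with SVP:GFP rank 34, FLC rank 46 and summits 5 bp apart.

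Of the 7 cold response genes, 6 were in at least 1 list. *CBF1*, an activator of cold-induced genes, had a common site (SVP:GFP rank 149, FLC rank 8) 600 and 576 bp upstream. Between *CBF1* and its neighbour *CBF3* lay a second FLC peak (chromosome 4, 13021036 to 13021740, rank 17) with no SVP:GFP peak in *flc-3*, and *CBF2* also had FLC alone (rank 159). The dehydrin genes *COR47* (ranks 141 and 233) and *ERD10* (rank 233) and the RNA-binding protein gene *CCR2* (ranks 124 and 192) had SVP:GFP alone, with summits in a 3′UTR except for the peak of rank 192. FLC peaks were thus at the 3 neighbouring *CBF* genes, of which *CBF1* also had an SVP:GFP peak. In WT, SVP:GFP peaks were assigned to all 3 (best rank 12 for *CBF1*, 321 for *CBF2* and 251 for *CBF3*). SVP:GFP peaks without FLC were at *COR47*, *ERD10* and *CCR2*, while *LTI78*, also cold-induced, had FLC alone. A gene assigned to a peak need not be controlled by it.

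The best-ranked common pairs, by the poorer of their ranks, lay at a repeat on chromosome 2 (32861 to 33114 for SVP:GFP, ranks 4 and 5), AT1G22460 (ranks 8 and 10, both summits in the 5′UTR) and *SEP3*. Next were 3 further pairs in the same stretch of chromosome 2 and AT1G54930 on chromosome 1 (ranks 12 and 14, copied). These were followed by another copied pair in that stretch of chromosome 2 (ranks 5 and 16) and a copied pair on chromosome 5 (10109175 to 10109439, ranks 16 and 18). The last was a single-copy site near AT4G08760 (ranks 17 and 21). Single-copy pairs just below them included *SOC1*, *BZIP49* (a bZIP factor, ranks 29 and 7), AT1G44010 (ranks 31 and 20) and *NAC3* (a NAC-domain factor, ranks 32 and 6).

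The top 8 sites of SVP:GFP alone were *SPA2*, *FBW2* (rank 9), AT2G30600 (rank 15), *CLF* (rank 18), AT5G54530 (rank 19), *DFL1* (an auxin-conjugating enzyme, rank 21), *THH1* with *PER4* (rank 22) and *SAC8* (rank 24). All 8 were single-copy. The peak of *FBW2* held 2 G-boxes, the nearer 4.5 bp from the summit, and that of AT5G54530 held 1 at 3.5 bp. The top 8 of FLC alone were AT1G20380 (rank 3), AT3G15110 (rank 11), *SRF3* (rank 15), *CBF3* with *CBF1* (rank 17), AT1G20823 (rank 26), AT3G60110 (rank 27), *LTI78* (rank 29) and *LAC10* (a laccase, rank 31). None of these 8 held a CArG-box or a G-box, and AT1G20380 was the only copied one, with 1 other copy.

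*CLF*, which encodes a histone methyltransferase of the Polycomb group that represses flowering genes, stood apart from the other sites of SVP:GFP alone. The gene (chromosome 2, 9955092 to 9960386) carried 9 separate SVP:GFP peaks in *flc-3*, with ranks from 18 to 197 and widths from 83 to 672 bp. All of their bases within the gene (2524 bp) were in annotated exons, although exons make up 66.4% of the gene. SVP:GFP in WT, FLC in *svp-41* and FLC in WT had no peak there. What gave rise to this exon-only pattern was not tested. It adds 9 of the 160 peaks of SVP:GFP alone.

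A second cluster of SVP:GFP alone lay on chromosome 2 between 3200000 and 3600000, where 12 peaks of ranks 146 to 229 were found and none was common. In 11 of them the 200 bp around the summit matched the mitochondrial genome at the threshold for copies. FLC in *svp-41* had 1 peak in this stretch, copied but without such a match, SVP:GFP in WT had none and FLC in WT had 1. Matches to the chloroplast genome occurred at 5 peaks of SVP:GFP alone, at 6 common SVP:GFP peaks and at 5 common FLC peaks, and no peak of FLC alone matched either organelle genome.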

How the data were processed

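ChIP-seq was made from 18 seedling samples in 6 groups of 3. The authors aligned reads to TAIR10 with Bowtie2 2.0.2 (base calls by CASAVA 1.8), removed duplicates, ran MACS against combined negative control samples, kept peaks reproducible between replicates and detected by NarrowPeaks, and merged them. The deposited lists give start, end, summit, assigned genes, a fold-enrichment ratio over the control and a −log10 *P* from the authors' peak calling. No column of sample values was left unused (0). Depth and values per replicate are not in the lists.

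Lists were compared with Python 3.11.15, pandas 2.3.3, NumPy 2.4.6 and SciPy 1.17.1. Overlaps equalled those of bedtools 2.31.1 in 20 of 20 simulated pairs of lists, and 200 of 200 planted CArG-boxes were found. Copies were searched with blastn 2.17.0, and figures drawn with matplotlib 3.10.9. Sequence and annotation were RefSeq TAIR10.1, in which all 329 annotated gene assignments of SVP:GFP and 412 of 413 of FLC lay within 3 kb upstream to 1 kb downstream, and 5 and 8 were not in the annotation. Named genes are those of the 8 lists, the 10 best common pairs and the top 8 sites of each protein alone. Others are said to be chosen later or illustrate a class. The members and lists were chosen with earlier results of these data known. Alternatives changed the overlap rule, thresholds, list length, motif window, copy criterion and gene assignment.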

Additional observations from a re-analysis of the deposited data

How the results depend on the processing

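Among peaks whose −log10(*P*) reached 20, which made both lists shorter, 36 SVP:GFP peaks and 33 FLC peaks were common and 33 genes were shared. With the classes formed again in these shorter lists, the share of SVP:GFP alone with a CArG-box was 9.21% and with copied sequence 7.89%. The share of FLC alone was 35.3% at copied sequence and 33.6% without an assigned gene. Without peaks at copied sequence, 48 peaks of either list were common (an alternative chosen after seeing the data), and the share without an assigned gene was 10.2% of common sites, 6.52% of SVP:GFP alone and 7.82% of FLC alone. With 5 to 7 A or T in the CArG-box, the shares were 8.13% of SVP:GFP alone and 13.1% of FLC alone, beside 3.78% of the genome tiles. Genes assigned again from the summits with TAIR10.1, from 3 kb upstream to 1 kb downstream, gave 135 shared genes. With WT lists of equal length, 39 sites of FLC alone overlapped SVP:GFP in WT. The other 62 of the 78 values under alternatives stayed within 1.5 times the count, within the interval of the share or within the quartiles of the class. No paired analysis was possible because each list is merged and the results come from no test, and for the same reason no replicate could be left out. The lists give no depth or replicate spread.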
